A study of Xenopus laevis with 6 samples.

Results

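β-catenin carries the canonical Wnt signal into the nucleus. Having no DNA-binding domain of its own, it occupies target genes through DNA-bound proteins, chiefly those of the TCF/LEF family. In the frog gastrula this pathway takes part in patterning the dorsoventral and anteroposterior axes and the mesoderm. Peaks of FLAG-tagged β-catenin were called separately by MACS and HOMER, programs that both search for stretches of the genome where sequenced fragments pile up above background but that set background, threshold and peak width in their own ways.

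The regions described here were called by HOMER in all 3 replicates and yet are absent from the combined list of regions deposited by the authors. They were chosen by the peak calls themselves. A HOMER peak of replicate 2 on a chromosome was taken when it shared at least 1 bp with a HOMER peak of replicate 1 and with a HOMER peak of replicate 3, and shared none with a common interval. The rule gave 1010 regions out of 9582 HOMER peaks of replicate 2 on the 18 chromosomes. A further 717 replicate 2 peaks met the HOMER part of the rule and overlapped a common interval, so that 1727 peaks recurred in all 3 HOMER lists, 18% of the 9582, and 7.48% of the 9582 lay in the common list.

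All embryos were Xenopus laevis, a frog with an allotetraploid genome made up of 9 chromosome pairs, each with a long (L) and a short (S) member. Triple FLAG-tagged β-catenin (500 pg per the labels, into both cells at the two-cell stage) was injected, and whole embryos were taken at stage 11.5, during gastrulation. Chromatin was precipitated with a FLAG antibody in 3 replicates, and 3 matched input libraries were made from embryos injected in the same way. Per the labels, pools of 100 embryos were sonicated, whereas the series' design text speaks of about 500 fixed per pool. Nothing in the labels ties the replicates to separate clutches, and the spread between them may be technical. The tagged protein was supplied by injection, and no library from embryos without it was analysed here, so a region here means a peak call. As whole embryos were used, a region bound in few cells and a region bound weakly in many cannot be told apart. The lists hold no read totals, so sequencing depth is unknown.

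Regions are given by their coordinates in the deposited lists. The sources used here do not name the genome build of the lists, so neither genes nor sequences were assigned to the regions.

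Most of the regions were missed by a single MACS list. Of the 1010 regions, 906 overlapped a MACS peak of replicate 1 (89.7%, 95% Wilson interval 87.7 to 91.4) and 851 overlapped one of replicate 2 (84.3%, 81.9 to 86.4). In contrast, 105 overlapped a MACS peak of replicate 3 (10.4%, 8.66 to 12.4), and 905 did not. Over all 9582 HOMER peaks of replicate 2 on chromosomes the shares were 44.6%, 52.9% and 12.7% for the MACS lists of replicates 1, 2 and 3. Those shares include the 717 peaks of the common list, which the rule leaves out. Among the 7855 peaks outside both sets they were 33.8%, 44.6% and 4.99%. Of these, the 3059 that recurred in 1 other HOMER list had shares of 66.6%, 62.0% and 10.4%, the last equal to that of the regions. Every one of the 717 regions in the common list had a peak in each MACS list, so leaving them out is not independent of the MACS calls. The shares therefore describe the regions and were not tested. Intervals cover counting error only.

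The commonest pattern was a MACS peak in replicates 1 and 2 without one in replicate 3, found at 705 regions or 69.8%, against 23.9% of all replicate 2 HOMER peaks on chromosomes. Replicate 1 alone accounted for 108 regions (10.7% against 9.49% of all these peaks) and replicate 2 alone for 57 (5.64% against 16.9%). Pairs of lists that included replicate 3 were rare both here and in the whole list, with 16 regions in replicates 1 and 3 (1.58% against 0.303%) and 12 in replicates 2 and 3 (1.19% against 1.12%). No region had a MACS peak in replicate 3 alone, where 0.25% of all the peaks did, and a count of 0 allows a share of up to 0.297%, with 3 counts of 1010 taken as the limit. No MACS peak at all was found at 35 regions, 3.47% against 37.1%. The replicate 3 MACS list, which missed the most regions, was the longest of the 3, with 36384 peaks on chromosomes against 9449 in replicate 1 and 24462 in replicate 2.

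**Figure D1:**
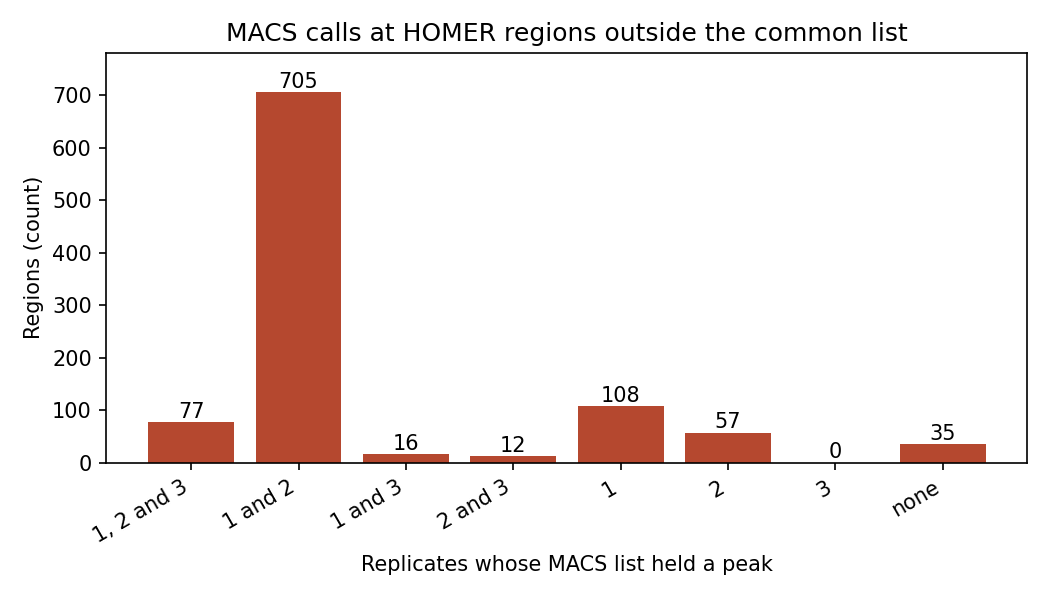
Number of HOMER regions outside the common list (y axis, count) for each combination of replicates whose MACS list held a peak there (x axis). The bar for replicates 1 and 2 stands at 705 of 1010 regions, and the bar for replicate 3 alone is empty.

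A MACS peak of the missing list was within 500 bp at few regions. For the 905 regions without a replicate 3 MACS peak, the nearest peak of that list lay at a median distance of 19.8 kb (quartiles 6.24 and 47.6 kb). It was within 500 bp for 35 of them (3.87%) and within 5 kb for 188 (20.8%). Over all replicate 2 HOMER peaks on chromosomes without a replicate 3 MACS peak, the median was 23.1 kb, with 2.26% within 500 bp and 16.4% within 5 kb. The 104 regions without a replicate 1 MACS peak lay a median of 23.3 kb from that list, against 60.2 kb over all the HOMER peaks without such a peak, and 4 were within 500 bp. The 159 regions without a replicate 2 MACS peak lay a median of 17.7 kb from that list, against 27.8 kb, and 8 were within 500 bp. Mean spacing of MACS peaks along the chromosomes was 265, 103 and 68.9 kb in replicates 1, 2 and 3.

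A smaller group of 77 regions (7.62%) overlapped a peak in all 3 MACS and all 3 HOMER lists, yet was outside the common list. Of all 9582 replicate 2 HOMER peaks on chromosomes, 1054 (11%) overlapped a peak in all 3 MACS lists. Those 1054 include the 717 regions of the common list, which the rule leaves out, so the 2 shares do not have a like base. At none of the 77 did the 6 lists share a single base within the replicate 2 HOMER peak. With the replicate 3 MACS list set aside, 57 of the 77 had a base shared by the other 5 lists, and with the replicate 1 HOMER list set aside 54 did. The corresponding numbers were 19 without the replicate 3 HOMER list, 9 without the replicate 2 MACS list and 0 without the replicate 1 MACS list. The 3 HOMER lists shared a base at 63 of the 77, and the 3 MACS lists shared a base with the replicate 2 HOMER peak at 64. Most of the calls at these regions thus overlapped each other, and the stretch shared by all 6 lists was empty. That emptiness may be fixed by the rule. All 717 replicate 2 HOMER peaks that overlapped a common interval had a peak in each of the 6 lists. If the common list was built from stretches shared by all 6, a region with such a stretch could not fall outside it. No explanation is therefore read from the count of 0 among the 77.

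The HOMER peaks of replicates 1 and 3 were centred close to the replicate 2 peak that each had to overlap. Positions in replicates 1 and 3 were not measured against each other. At the 77 regions above, the 3 HOMER lists shared a base at 63 and not at the rest. The centre of the replicate 2 peak lay a median of 42 bp from that of the replicate 1 peak (quartiles 19 and 72.8 bp) and 51 bp from that of the replicate 3 peak (24 and 92 bp). In the 717 regions of the common list the medians were 40 and 39 bp. The rule bounds these distances, because HOMER peaks were mostly 172, 290 and 246 bp wide in replicates 1, 2 and 3. The smallest accepted overlap was 13 bp with replicate 1 and 7 bp with replicate 3. Just outside the rule, 11 replicate 2 peaks that were shared with replicate 3 missed a replicate 1 HOMER peak by 100 bp or less, the closest by 3 bp, and 8 that were shared with replicate 1 missed a replicate 3 peak in the same way, the closest by 4 bp.

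The regions scored below those of the common list in every replicate and above the general run of HOMER peaks in replicates 1 and 2. Scores are the authors' own values, have no common scale across lists and are read only within a list; they come from the calls that chose the regions and are given without a test. In replicate 1 the HOMER score of the 1010 regions ran from 12 to 77 with a median of 30, against a median of 41 in the common list and 19 over the whole replicate 1 list. In replicate 2 it ran from 14 to 105 with a median of 35, against 60 in the common list and 21 over the list. In replicate 3 it ran from 9 to 23 with a median of 11, against 18 in the common list and 11 over the list. The groups overlapped throughout. The median of the common list was exceeded by 154 of the regions in replicate 1, by 96 in replicate 2 and by 19 in replicate 3.

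In replicate 3 the regions stood close to the level of the whole list. Scores above the median of the whole list were held by 86.8% of the regions in replicate 1, 87.7% in replicate 2 and 47.8% in replicate 3. Because HOMER scores are whole numbers with many ties, 46.7%, 48.4% and 46.6% of all peaks of the 3 lists lay above their median, and 176 regions had exactly the median score of 11 in replicate 3.

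**Figure D2:**
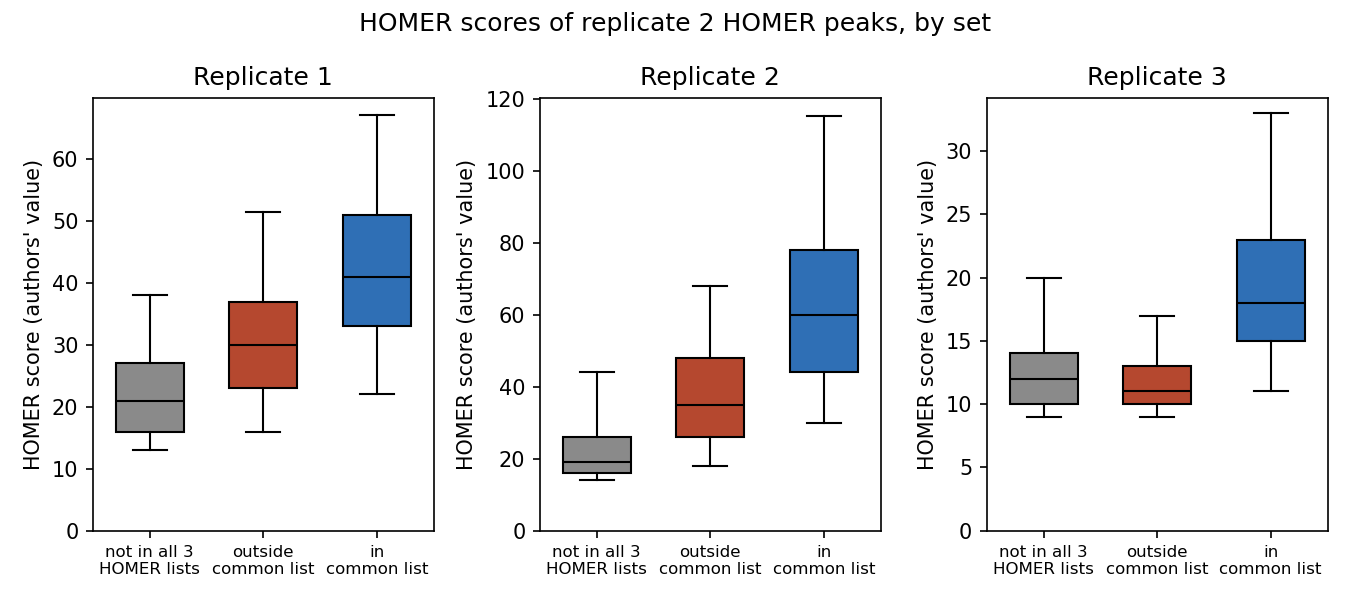
HOMER scores (y axis, the authors' value, a separate scale for each replicate) of replicate 2 HOMER peaks and of the peaks they overlap in replicates 1 and 3, for peaks not found in all 3 HOMER lists, for the 1010 regions outside the common list and for the 717 in it. Boxes span the quartiles around the median and whiskers the 5th to 95th percentile; the regions outside the common list have medians of 30, 35 and 11 against 41, 60 and 18 in it.

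Where a MACS peak existed, MACS scores in replicates 1 and 2 likewise lay between the whole list and the common list, and in replicate 3 they lay below both. In replicate 1 the median was 146 over 906 regions, against 235 in the common list and 74.8 over the list. In replicate 2 it was 199.7 over 851 regions, against 453 and 69.8. The 105 regions with a replicate 3 MACS peak had a median of 63.0, against 101 in the common list and 68.2 over the whole replicate 3 list, and 37 of the 105 scored above the median of that list. The MACS peaks were wider than their lists in replicates 1 and 2, at medians of 495 and 465 bp against 345 and 263 bp. In replicate 3 the median was 177 bp where the list had 196 bp. MACS peaks at the regions of the common list were wider in every replicate, at medians of 594, 656 and 249.5 bp.

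The share of the regions with a replicate 3 MACS peak was larger at high replicate 3 HOMER scores. At a score of 9, the lowest in that list, 8 of 168 regions had such a peak (4.76%, 95% Wilson interval 2.43 to 9.11). The share was 3.90% of 359 regions at scores of 10 to 11, 11.5% of 305 at 12 to 14 and 24.2% of 165 at 15 to 19. Above that, at 20 to 23, it was 8 of 13 regions (61.5%, 35.5 to 82.3). A replicate 2 MACS peak was found at 72.6%, 83.6%, 86.2%, 93.3% and 92.3% of the regions in the same classes. The regions themselves made up 96.6% of the recurring HOMER regions in the lowest class and 4.04% in the highest. All 717 regions of the common list had a replicate 3 MACS peak. With them included, the share ran from 8.05% of 174 in the lowest class to 98.4% of 322 in the highest. The score classes were chosen after the values were seen, and nothing was tested.

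**Figure D3:**
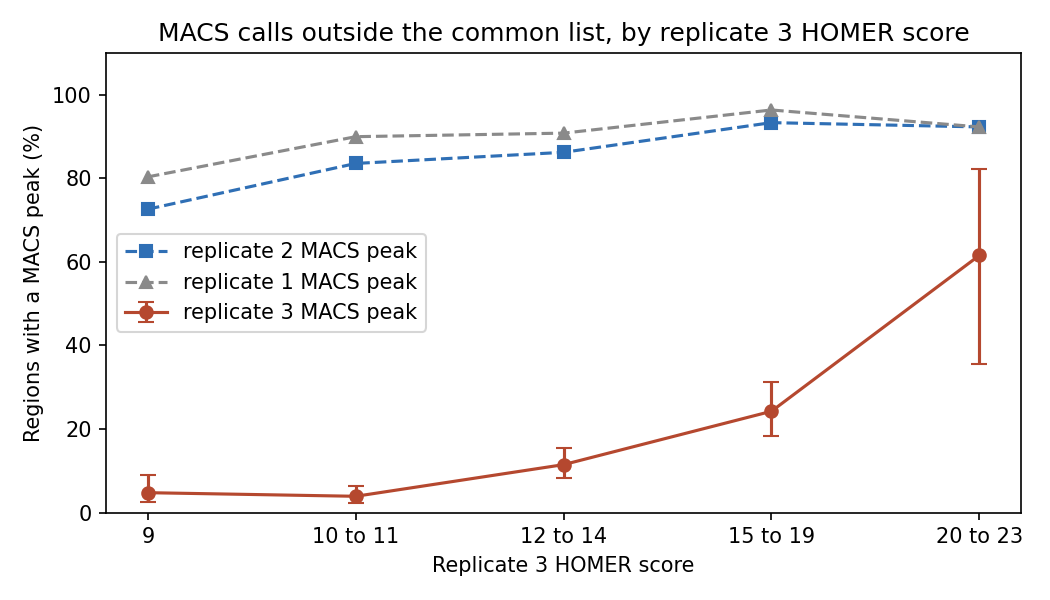
Share of the 1010 HOMER regions outside the common list that overlap a MACS peak (y axis, %), by class of replicate 3 HOMER score (x axis). Circles with 95% Wilson intervals are the replicate 3 MACS list, at 4.76% in the lowest class and 61.5% in the highest, which holds 13 regions; squares and triangles, without intervals, are the MACS lists of replicates 2 and 1, which begin at 72.6% and 80.4%.

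Scores of the regions were related between replicates 1 and 2 and less so with replicate 3. Across the 1010 regions Spearman's rho of the HOMER scores was 0.597 for replicates 1 and 2, 0.336 for replicates 1 and 3 and 0.341 for replicates 2 and 3. In the 717 regions of the common list it was 0.653, 0.565 and 0.650. Between the callers within replicate 2, rho was 0.899 over 851 regions, and within replicate 1 it was 0.654 over 906. Within replicate 3 it was 0.018 over 105 regions, against 0.636 in the common list. Replicate 3 scores spanned a narrower range in the regions, with HOMER quartiles of 10 and 13 against 15 and 23 in the common list. Their replicate 3 MACS scores had quartiles of 55.3 and 76.0 against 68.4 and 160. Whether the narrower range accounts for the lower rho was not tested, so no disagreement of callers or replicates is read from it. Regions of a list share a library and its depth and are not independent replicates, and the values are descriptions.

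Named first are the 10 regions with the best mean HOMER rank over the 3 lists. The best of them lay on chromosome 2S at 52171460 to 52171749. Its HOMER scores were 67, 105 and 20 in replicates 1, 2 and 3, which ranked 101, 66 and 364 in their lists, with tied peaks sharing the better rank. Its MACS scores were 796, 1329 and 93.7, and the first of these was the 19th of its list. As at all 77 regions with a peak in each of the 6 lists, no base was shared by all 6. Here the HOMER peaks of replicates 1 and 3 also shared no base with each other within the replicate 2 peak.

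The next lay on chromosome 5S at 73770844 to 73771133, with HOMER scores of 51, 96 and 22 and MACS scores of 400.1 and 701 in replicates 1 and 2. Its nearest replicate 3 MACS peak was 138 kb away and its nearest common interval 10.8 Mb away. A region with similar scores but a different surrounding was found on chromosome 9_10L at 2969766 to 2970055. Its HOMER scores were 55, 100 and 18, its MACS scores 418 and 709 in replicates 1 and 2, and a common interval lay 1.26 kb and a replicate 3 MACS peak 1.36 kb away. The region on chromosome 8L at 57901897 to 57902186 had a replicate 3 HOMER score of 23, the highest of the 1010 and shared by 2 of them. Its HOMER scores were 48 and 85 in replicates 1 and 2, and its MACS scores 401, 1051 and 174. It lay 6.83 kb from a common interval. Within its replicate 2 peak, too, the HOMER peaks of replicates 1 and 3 shared no base.

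The other 6 of the 10 lay on chromosomes 6S at 62512940, 4L at 63409708, 5S at 62129002, 1L at 28799390, 5L at 28139934 and 6L at 108406655. Over the 10, HOMER scores ran from 48 to 71 in replicate 1, from 68 to 105 in replicate 2 and from 17 to 23 in replicate 3. A replicate 3 MACS peak was present at 6 of the 10, with scores of 50.9 to 174. The other 4 had MACS peaks in replicates 1 and 2 alone.

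The best-ranked region of each rarer MACS pattern shows how the callers parted. On chromosome 4L at 91337235 to 91337524, HOMER scores of 48, 28 and 15 went with MACS scores of 151 in replicate 1 and 53.3 in replicate 3 and none in replicate 2. On chromosome 5L at 70711313 to 70711602, HOMER scores of 34, 41 and 9 went with MACS scores of 207 in replicate 2 and 127 in replicate 3. On chromosome 1L at 172953485 to 172953774, HOMER scores of 36, 29 and 11 went with a MACS score of 155 in replicate 1 alone. These regions had lower HOMER scores in replicate 2 than any of the 10 above.

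On chromosome 8L at 44457297 to 44457586, HOMER scores of 25, 37 and 16 went with a MACS score of 317 in replicate 2 alone, and the nearest replicate 3 MACS peak was 26 bp away. The best-ranked of the 35 regions without any MACS peak lay on chromosome 3S at 31508523 to 31508812, with HOMER scores of 17, 28 and 17. Those 35 regions had median HOMER scores of 17, 19 and 10, below the medians of 32, 40 and 11 for the 705 regions with MACS peaks in replicates 1 and 2 alone and of 32, 40 and 15 for the 77 regions with all 3.

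Few of the regions flanked a common interval. The distance to the nearest common interval had a median of 899 kb, with quartiles of 92.0 kb and 2638 kb. It was at most 1 kb for 9 regions, at most 5 kb for 45 (4.46%) and at most 50 kb for 207 (20.5%), and it exceeded 1 Mb for 483 (47.8%). Among all replicate 2 HOMER peaks on chromosomes outside the common list, 1.94% lay within 5 kb and 11.9% within 50 kb. The 7855 HOMER peaks that did not recur in both other replicates had a median distance of 1264 kb. The 717 regions of the common list lay closer to another common interval, at a median of 288 kb and with 36.1% within 50 kb. Neighbouring peaks are not independent, and these distances were not tested.

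**Figure D4:**
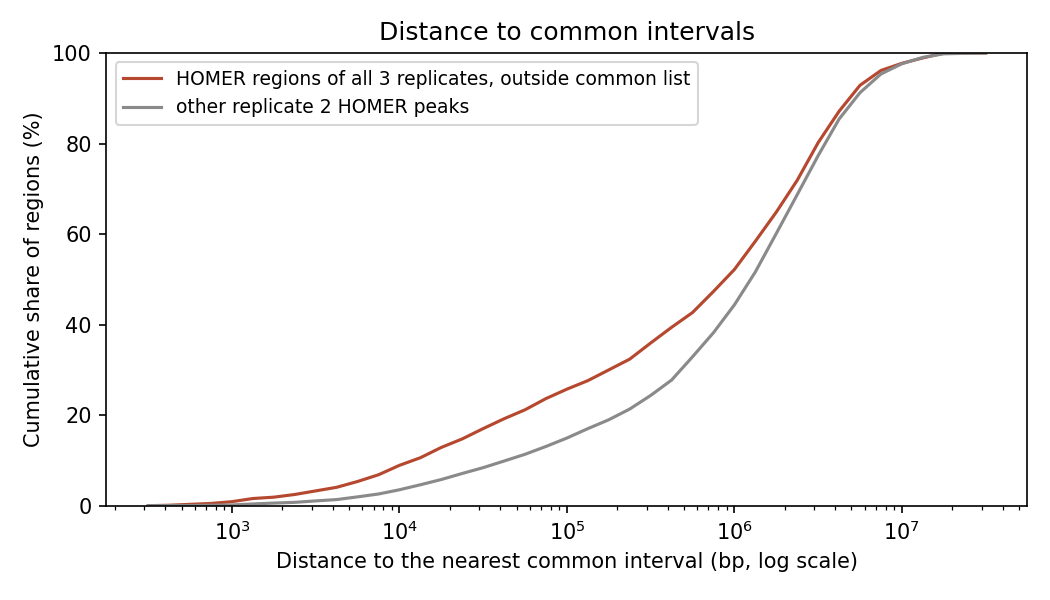
Cumulative share of regions (y axis, %) lying within a given distance of the nearest common interval (x axis, bp, log scale), for the 1010 HOMER regions outside the common list and for the 7855 HOMER peaks of replicate 2 not found in all 3 lists. Within 50 kb lie 20.5% of the former and 10.7% of the latter.

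At the edge of the rule, the nearest of the 1010 regions stood 387 bp from a common interval, on chromosome 2L at 158805680 to 158805969, and the smallest overlap among the 717 in the common list was 256 bp. The region on 2L had HOMER scores of 40, 54 and 12 and MACS scores of 113 and 448 in replicates 1 and 2, with a replicate 3 MACS peak 388 bp away. The next nearest lay 483 bp away on chromosome 9_10L at 56039792 and 558 bp away on chromosome 1S at 3552514. At the other end, the region on chromosome 1L at 210107064 to 210107353 was 17.0 Mb from any common interval, with HOMER scores of 54, 83 and 12 and MACS scores of 318 and 544 in replicates 1 and 2. The following 2 lay on chromosome 2L at 84261728 and 84204244, at 16.5 Mb each.

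The 207 regions within 50 kb of a common interval had median HOMER scores of 33, 39 and 12 in replicates 1, 2 and 3, and 14.01% had a replicate 3 MACS peak. The 483 regions beyond 1 Mb had medians of 28, 33 and 11, and 8.90% had such a peak. Neither class was set against other HOMER peaks at the same distances, and the contrast was not tested. Most of the regions had no other of the 1010 within 10 kb. The nearest other region lay at a median distance of 479 kb (quartiles 64.2 and 1385 kb). It was within 50 kb for 229 regions (22.7%). These distances were not set against other HOMER peaks or an even spread, so neither clustering nor isolation is read from them. With regions spaced by at most 10 kb joined into runs, 908 stood alone, 48 runs held 2 regions and 2 runs held 3. The run of 3 on chromosome 1L at 170170024 to 170180070 had MACS peaks in replicates 1 and 2 at each region, HOMER scores of 34 to 52 in replicate 1 and 45 to 51 in replicate 2, and lay 33.4 kb from a common interval. The other run of 3 on chromosome 2L at 132191218 to 132201738 scored lower, at 18 to 33 and 18 to 26, and lay 4.79 Mb away.

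The regions were denser on L than on S chromosomes. Of the 1010, 607 lay on L chromosomes (0.443 per Mb) and 403 on S chromosomes (0.354 per Mb). The share on L chromosomes, 60.1%, was near the 58.8% of all replicate 2 HOMER peaks on chromosomes outside the common list, and nothing particular to these regions is read from it. L was the denser member in 9 of the 9 pairs, and the log2 ratio of L over S density averaged 0.31 ± 0.19 (SD over 9 pairs; exact 2-sided sign-flip permutation p = 0.00391, the smallest that 9 pairs allow, adjusted p = 0.0117 over 3 comparisons). The ratio was highest in pair 8, with 74 regions on 8L and 42 on 8S (0.54), and in pair 1, with 104 and 59 (0.53). It was lowest in pair 3, with 57 and 47 (0.02), and pair 7, with 55 and 38 (0.03). The unit of the test is the chromosome pair, and it carries no information on variation between embryos. In the better-scoring 50% of each HOMER list the ratio was 0.63 ± 0.48 (SD over 9 pairs, exact sign-flip adjusted p = 0.0117). It was the highest of 17 alternative settings, which ran from 0.24 to 0.63. The share on L chromosomes of all better-scoring replicate 2 HOMER peaks was not computed, so no link between score and L chromosomes is read from this setting. In that setting the regions of the common list gave 0.14 (exact sign-flip adjusted p = 0.215). The difference between the sets did not pass there (exact sign-flip adjusted p = 0.0586).

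The 717 regions of the common list gave 0.10 ± 0.24, with L denser in 5 of the 9 pairs, and did not pass the test (exact sign-flip adjusted p = 0.238). These pair counts depended on the overlap rule. With 50% of both HOMER intervals shared, the common list had L denser in 8 of 9 pairs (0.15, exact sign-flip adjusted p = 0.0645). Under that rule the regions outside it had L denser in 7 of 9. The difference between the regions outside and inside the common list averaged 0.20 ± 0.34 and had the same sign in 7 of 9 pairs, and did not pass the test (exact sign-flip p = 0.105, adjusted p = 0.158). It depended on single pairs in both directions. Pair 7, with the common list at 0.48, opposed it most, at -0.44, so leaving that pair out raises the mean by construction. The difference was then 0.28 (exact sign-flip adjusted p = 0.0352), and nothing is concluded from that pass. Pair 8 carried it most, at 0.74, and without pair 8 it was 0.14 (exact sign-flip adjusted p = 0.211). Replicate 2 HOMER peaks that did not recur in both other replicates gave 0.24 ± 0.11 with L denser in 9 of 9 pairs, and the regions were not tested against them.

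**Figure D5:**
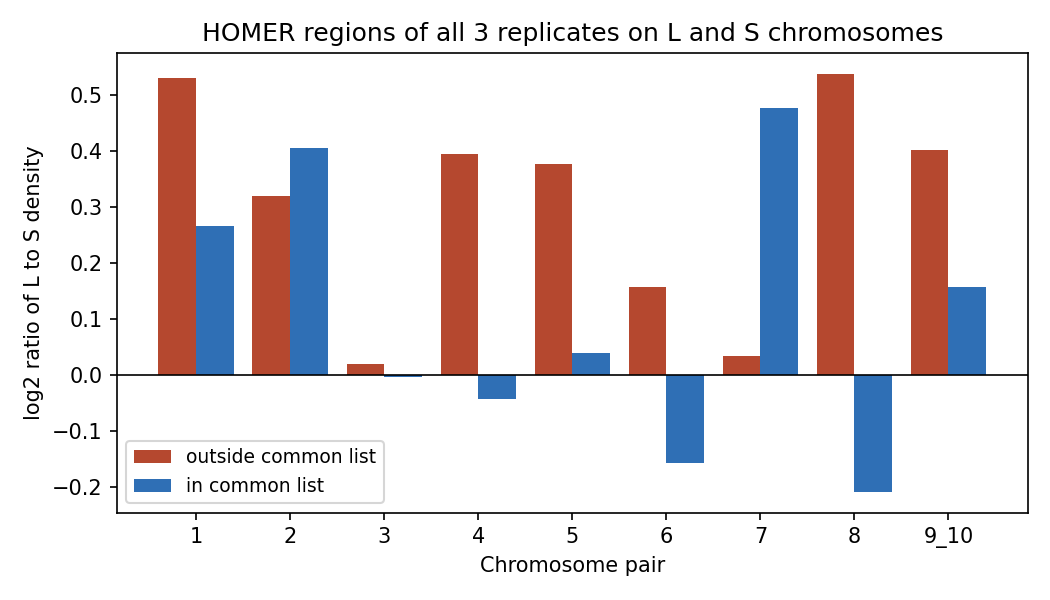
log2 ratio of L to S density (y axis) for each of the 9 chromosome pairs (x axis), for the 1010 HOMER regions outside the common list and the 717 in it; a bar above 0 is a denser L chromosome. All bars of the former are above 0, from 0.02 in pair 3 to 0.54 in pair 8, whereas those of the latter run from -0.21 in pair 8 to 0.48 in pair 7.

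The share on L chromosomes differed between the MACS patterns, without following the replicate 3 calls throughout. Of the 705 regions with MACS peaks in replicates 1 and 2 alone, 445 lay on L chromosomes (63.1%), as did 67 of the 108 with replicate 1 alone (62.0%), 22 of the 57 with replicate 2 alone (38.6%) and 20 of the 35 with none (57.1%). Among those with a replicate 3 MACS peak, 35 of the 77 with all 3 lists (45.5%), 12 of the 16 with replicates 1 and 3 (75%) and 6 of the 12 with replicates 2 and 3 (50%) lay on L chromosomes. The 905 regions without a replicate 3 MACS peak had a mean log2 ratio of 0.38 ± 0.16 with L denser in 9 of 9 pairs. The 105 regions with such a peak were split into 53 on L and 52 on S chromosomes, at -0.50 ± 1.06 with L denser in 5 of 9 pairs. That mean rests on small counts per chromosome, with pair 3 at -2.26. Pooled over pairs, the densities were 0.0387 per Mb on L and 0.0456 per Mb on S chromosomes. The 105 are what the rule leaves of 822 recurring HOMER regions with a replicate 3 MACS peak. All 822 gave 0.06 ± 0.21 with L denser in 6 of 9 pairs, and 56.0% of them lay on L chromosomes. Shares on L chromosomes by MACS pattern were not computed over all replicate 2 HOMER peaks, so nothing particular to the regions is read from them. These splits were made after the values were seen and were not tested.

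By chromosome, the regions were densest on 8L (0.616 per Mb), 9_10L (0.568) and 1L (0.473) and sparsest on 5S (0.256), 1S (0.328) and 2S (0.332). Those of the common list were densest on 7L (0.465 per Mb), 9_10L (0.416) and 8S (0.394) and sparsest on 2S (0.175), 4L (0.208) and 4S (0.214). Neither ranking was tested or set against all replicate 2 HOMER peaks. The share of the 1727 recurring HOMER regions that lay outside the common list ranged from 48.2% on 7L, which held 55 outside and 59 inside, to 68.1% on 4L, which held 64 and 30. Along the chromosomes the regions were spread, with 22.5%, 17.3%, 17.4%, 23.1% and 19.7% in 5 successive segments of equal length from the start of each chromosome. The common list had 25.5%, 18.7%, 17.2%, 20.1% and 18.5% in the same segments.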

How the data were processed

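Of the 6 samples, the 3 ChIP libraries have peak lists, and the 3 inputs served as background for the calling. The submitters' processing notes name Bowtie2, SAMtools, bedtools and the callers MACS and HOMER; for versions, settings and genome build, the sources used here say nothing. Each deposited list gives positions and, beside each peak, a score from the authors' caller that no file header names. Peaks were called per replicate against 1 input, per the list names. Genes were not assigned: in the available gene table (assembly version 10.1) the chromosomes are longer, and the last peak of each of the 18 chromosomes lay 4.73% to 20.7% before the last gene in it.

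Overlap meant at least 1 shared bp. Where several peaks of a list overlapped a region, the highest score was used. Distances are the bases between intervals. The length of a chromosome was set to the end of its last peak over all lists. L to S log2 ratios were tested by exact 2-sided sign flips over 9 pairs (512 patterns), with Benjamini-Hochberg adjustment over 3 comparisons and a threshold of 0.05. Members and tests were chosen with earlier results of these data known. Named regions are the 10 with the best mean HOMER rank, the best of each MACS pattern, the 3 nearest to and 3 farthest from a common interval, and the longest runs; beyond 2 runs of 3, no run could be singled out among 48 of equal size. Alternatives were other overlap rules, the better 50% of each list (ties taken in order of position), other anchor lists, a 1 kb margin, merging within 50 kb, and leaving out each replicate or chromosome pair. Computations were run in Python 3.11.15 with scipy 1.17.1, pandas 2.3.3, numpy 2.4.6 and matplotlib 3.10.9. The member count was checked with bedtools 2.31.1 (difference 0), and the overlap and L to S steps were tested on simulated data.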

Additional observations from a re-analysis of the deposited data

How the results depend on the processing

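The 1010 regions became 733 with 50% of both HOMER intervals shared, 987 with centres within 200 bp, 970 and 978 when counted from the replicate 1 or 3 list, and 1001 with no common interval within 1 kb. They became 465 in the better 50% of each HOMER list, by construction, and 1196 to 3201 on dropping a replicate, so that only 2 lists had to overlap, the highest without replicate 3. The shares with a MACS peak of replicates 1, 2 and 3 (89.7%, 84.3% and 10.4%) were 61.2%, 45.2% and 2.97% with 50% of both intervals shared, a rule that also depends on peak width, and 80.6%, 75.05% and 3.66% in the better 50% of each MACS list. The replicate 3 share was 13.9% within 500 bp. Leaving out a replicate gave 72.7% to 86.4%, 65.7% to 79.7% and 5.15% to 19.4%. In the order of the lists, replicate 3 was the lowest in every one of these settings. The share within 5 kb of a common interval, 4.46%, was 6.45% in the better 50% of each HOMER list and 3.03% to 5.69% on dropping a replicate, with no test of the cause. All 16 recomputed differences of median HOMER score kept their sign. The L to S ratio of the regions passed in all 17 settings (0.24 to 0.63), but leaving out chromosome pairs says nothing about stability, because all 9 pairs shared a sign in the main setting. Not every setting kept that shared sign. L was denser in 7 of 9 pairs under the 200 bp centre rule, and also under the 50% overlap rule. Both passed narrowly (exact sign-flip adjusted p = 0.0469 each). Dropping replicate 1 left L denser in 8 of 9 (exact sign-flip adjusted p = 0.0234). The other settings that used all pairs kept 9 of 9. The ratio in the common list passed in none of 17. The 1 kb margin and leaving out a replicate changed only the regions outside the common list. Those settings left the common-list ratio at its main value of 0.10 and add no check of it. The difference between them passed only without chromosome pair 7, the pair that opposed it most (0.28, exact sign-flip adjusted p = 0.0352). The cause was not tested. In the other 16 settings adjusted p ran from 0.0586 to 0.352. Depth is unknown and limits all scores. No paired analysis was possible because only ChIP libraries have deposited peaks among the files used.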
